A study of Mus musculus with 4 samples.

Results

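The genes described here are 10 mouse LIM-domain factors, namely the LIM-only genes Lmo1, Lmo2, Lmo3 and Lmo4, the LIM-binding cofactors Ldb1 and Ldb2, and the LIM homeodomain genes Isl1, Lhx2, Lhx3 and Lhx6. They were chosen by name, with earlier results of these data known. Every probe set that the platform annotation assigns to exactly 1 gene bearing one of these symbols was taken. This gave 15 probe sets for the 10 genes, of 34945 single-gene probe sets for 18193 genes in all. Ldb2 has 3 probe sets, Isl1, Lhx3 and Lhx6 have 2 each, and the other 6 genes have 1.

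RNA came from sorted retinal neurons of postnatal day 6 mice of a mixed C57Bl6 x CD1 background, and both groups were sorted as CFP+ cells that express the MP transgene. MP amacrine cells were the CFP+VC1.1+ fraction of papain-dissociated retina, and MP bipolar cells were the CFP+VC1.1– fraction, sorted after magnetic depletion of VC1.1+ cells. Each group had 2 replicates from different litters, with about 1000 cells and 1 Affymetrix array per replicate. Carrier fathers and non-carrier mothers gave the litters. Neither the promoter that drives the transgene nor the number of animals pooled per replicate was given in the sources used here. Amacrine cells are mostly inhibitory and act in the inner retina, while bipolar cells carry photoreceptor signals there. The question put to the LIM factors was how their levels differ between these neurons when both express MP.

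A LIM domain is a zinc-binding fold that joins proteins to each other rather than to DNA. LIM homeodomain factors add a DNA-binding homeodomain, Ldb proteins dimerise and bridge pairs of LIM-bearing partners into one complex, and Lmo proteins have LIM domains but no homeodomain, so they can take the place of a LIM homeodomain factor on Ldb. In the retina Isl1 is known from ganglion cells, starburst amacrine cells and ON bipolar cells, Lhx2 from progenitors and Müller glia, and Lhx3 from subsets of cone bipolar cells.

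The promoter windows of Lhx3 and Isl1 are shown because these are the LIM homeodomain members above the dimness filter. Lhx3 has separate annotated starts, and the windows of both are shown. The windows were taken from a RefSeq-based table (GRCm38.p6), run from 250 bases before to 50 bases after an annotated start, and are written 5′ to 3′. Capitals mark matches, on either strand, to TAATTA and TAATCC, both homeodomain-type words, and to the E-box words CAGCTG and CAGATG.

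Lhx3, start 1, chr2:26208200-26208499, minus strand: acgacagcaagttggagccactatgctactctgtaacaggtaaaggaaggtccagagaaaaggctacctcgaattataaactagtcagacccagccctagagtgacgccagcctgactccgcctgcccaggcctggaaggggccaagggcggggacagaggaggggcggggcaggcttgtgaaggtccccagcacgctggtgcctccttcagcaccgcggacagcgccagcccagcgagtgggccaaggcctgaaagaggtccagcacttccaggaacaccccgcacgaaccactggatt

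Lhx3, start 2, chr2:26206526-26206825, minus strand: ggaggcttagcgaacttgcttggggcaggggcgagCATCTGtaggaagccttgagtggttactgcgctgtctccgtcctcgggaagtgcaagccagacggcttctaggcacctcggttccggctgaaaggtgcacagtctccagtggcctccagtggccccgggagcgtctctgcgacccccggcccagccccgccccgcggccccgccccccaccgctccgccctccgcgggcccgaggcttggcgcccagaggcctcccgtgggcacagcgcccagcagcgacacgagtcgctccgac

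Isl1, chr13:116309639-116309938, minus strand: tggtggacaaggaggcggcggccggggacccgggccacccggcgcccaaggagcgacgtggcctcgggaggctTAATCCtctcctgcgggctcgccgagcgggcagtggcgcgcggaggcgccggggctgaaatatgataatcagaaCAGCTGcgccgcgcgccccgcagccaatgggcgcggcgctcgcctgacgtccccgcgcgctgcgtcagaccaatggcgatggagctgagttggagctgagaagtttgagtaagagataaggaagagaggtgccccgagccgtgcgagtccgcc

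The Lhx3 window at start 1 held none of the 4 words, and the window at start 2 held CAGATG on the opposite strand (printed as CATCTG), 215 bases before the start. The Isl1 window held TAATCC 177 bases and CAGCTG 103 bases before the start. Over all 32851 windows of this length in the table, TAATTA occurred in 5.29%, TAATCC in 7.06%, CAGCTG in 16.3% and CAGATG in 17.2%. Of the 10 genes, 8 matched a window (17 windows), and Lmo2 and Ldb2 are named only. A match describes letters in a window and nothing about binding.

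The deposited values are intensities on a linear scale, and array medians lay between 44.5 and 47.2. Differences are given as log2(intensity + 16), MP amacrine minus MP bipolar, so a negative value is lower in MP amacrine cells, and differences of dim genes are understated. Among several probe sets of a gene, that with the highest mean log2 value represented it. Genes entered the test if this probe set exceeded the array median on at least 2 arrays, and a gene was called at a Benjamini-Hochberg adjusted p under 0.05 over all 11583 tested genes (limma). Most tested markers followed the labels of both groups. In MP amacrine cells 6 of 7 tested amacrine markers rose with none lower, and 4 of 5 tested bipolar markers fell with none higher. Tfap2b and Tfap2c passed the filter only through their MP amacrine arrays. The 6 bipolar markers summed to 6601 to 6744 on the MP amacrine arrays, against 15992 to 16295 on the MP bipolar arrays. Without Prdm8 the sums were 2144 and 1907, against 10632 and 10830. The 7 rod markers summed to 7019 to 11608 on the MP amacrine arrays, against 8958 to 10423 on the MP bipolar arrays. The source of these levels was not tested. Among the amacrine markers Pax6 had intensities of 1139 and 1405 on the MP amacrine arrays, against 32.3 and 44.9 on the MP bipolar arrays. RNA of MP amacrine replicate 2 gave the steepest fall along its control transcripts, with a 3′ minus 5′ difference (log2) of 3.16 for Gapdh, against 1.77 to 1.98 on the other 3 arrays. The calls of Ldb2, Lhx3 and Lmo2 given next were also made without that array.

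Of the 10 genes 6 passed the dimness filter and were tested, and 3 of these, Lhx3, Ldb2 and Lmo2, fell in MP amacrine cells relative to MP bipolar cells. None of the 6 was called higher in MP amacrine cells. Across all tested genes 13.5% were called, 6.92% as lower and 6.54% as higher in MP amacrine cells. The 10 genes were chosen with earlier results known, so setting their count beside these shares is no test. Lhx3, Ldb2 and Lmo2 gave differences of -2.88, -2.64 and -1.39, and Lmo1, Lmo4 and Isl1 gave 0.14, 0.45 and 0.64. The median of the 6, -0.62, falls in the gap between Lmo2 and Lmo1, where no tested member lies. The median of all tested genes was -0.03. Lhx3 passed the filter only through its MP bipolar arrays, so its passing and its difference are not separate facts. Fewer cells of a type and less RNA per cell cannot be told apart in these sorted pools.

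Ldb2, one of the pair of cofactors that bridge LIM proteins, was lower in MP amacrine cells with every probe set. With the brightest, 1439557_s_at, the MP amacrine arrays read 228 and 229 and the MP bipolar arrays read 1499 and 1513. The groups were far apart, and the replicates of each differed by little. The log2 difference was -2.64 (SE 0.20, adjusted p = 0.000114, limma), or 6.22-fold lower with a 95% interval of 4.51 to 8.59-fold. Only 113 of the 11583 tested genes had a more negative difference. It was called under all 16 alternatives that were run, with differences between -2.72 and -1.96.

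The other probe sets of Ldb2 went the same way. Probe set 1421101_a_at read 59.9 and 92.1 on the MP amacrine arrays, against 303 and 374 on the MP bipolar arrays, a log2 difference of -1.96 (SE 0.26, adjusted p = 0.00488 over all 19168 tested probe sets, limma). Probe set 1456786_at read 22.5 and 17.4 on the MP amacrine arrays, against 160 and 225 on the MP bipolar arrays (-2.52, SE 0.24, adjusted p = 0.00120). For neither did the groups overlap. Probe set 1456786_at lay above the array median on its MP bipolar arrays alone. The call of 1421101_a_at was lost with no filter on dim probe sets (adjusted p = 0.0560) and also when MP bipolar replicate 2 was left out (adjusted p = 0.0506). The 95% intervals of the 3 probe sets overlapped, the widest running from -2.58 to -1.34.

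Ldb1, the more widely expressed cofactor of the pair, was too dim to be tested. Its probe set read 58.5 and 39.7 on the MP amacrine arrays, against 45.3 and 41.0 on the MP bipolar arrays. The groups overlapped, and 1 array of 4 lay above its median. The log2 difference was 0.12, and with no filter on dim probe sets its adjusted p was 0.830.

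**Figure D1:**
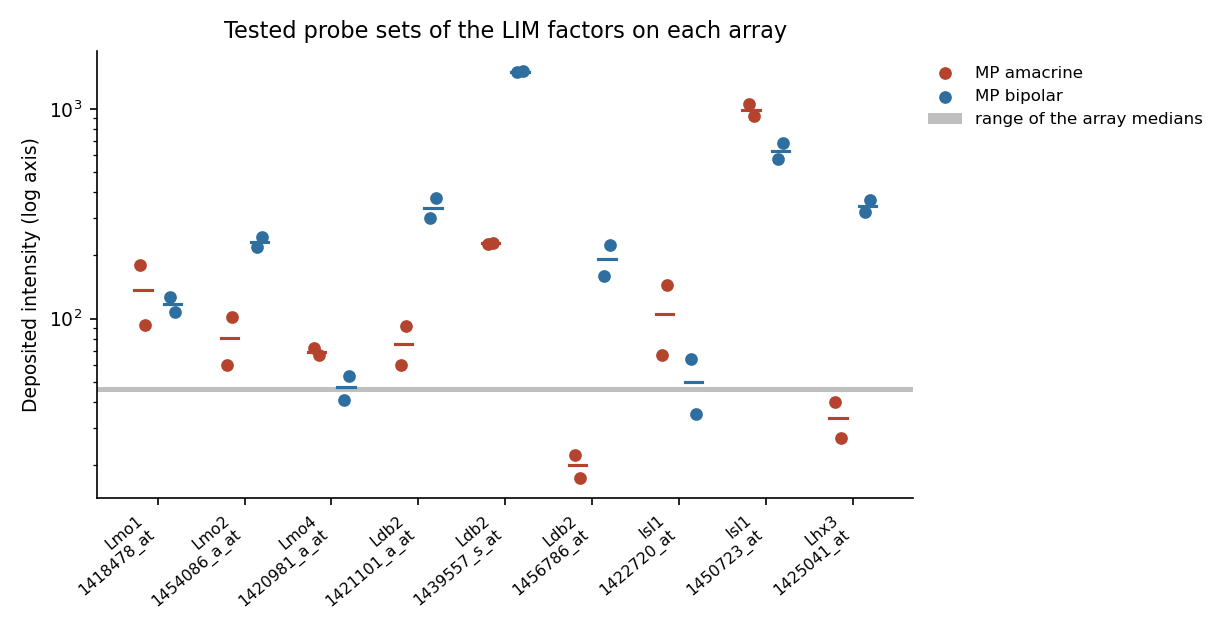
Deposited intensity (log axis) of the 9 tested probe sets of the LIM factors on each of the 4 arrays. Points are arrays, short lines are group means (n = 2 each) and the grey band is the range of the 4 array medians. The 3 Ldb2 probe sets, Lhx3 and Lmo2 are lower on both MP amacrine arrays, and both Isl1 probe sets and Lmo4 are higher there.

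Lhx3, a LIM homeodomain factor, had the largest difference of the 6 tested genes as processed here, but Ldb2 had the larger one with an offset of 64 or with probe sets averaged. Probe set 1425041_at read 39.9 and 27.0 on the MP amacrine arrays, against 323 and 368 on the MP bipolar arrays. Both MP amacrine values lay below the array median and both MP bipolar values lay well above it. The log2 difference was -2.88 (SE 0.23, adjusted p = 0.000137, limma), or 7.36-fold lower with a 95% interval of 5.10 to 10.6-fold. The size moved with the offset added before the log, at -3.35 with an offset of 1 and -2.07 with an offset of 64 (Ldb2 -2.42). The gene was called under all 16 alternatives run.

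The other Lhx3 probe set did not show this pattern. Probe set 1421753_a_at read 31.8 and 29.0 on the MP amacrine arrays, against 43.8 and 29.9 on the MP bipolar arrays. The groups overlapped, all 4 arrays lay below their median, and the difference of -0.18 was not tested (adjusted p = 0.753 with no filter). Averaging both probe sets moved the Lhx3 difference to -1.53 (adjusted p = 0.00193), and averaging those of Ldb2 gave -2.37. Which of the gene's transcripts each probe set reads was not given in the sources used here, and the windows printed above do not show it.

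Markers of OFF bipolar cells were read beside Lhx3. Of 9 tested, 7 were called lower in MP amacrine cells and 0 higher, and their median difference was -2.27. Among the 7, Grik1 and Fezf1 passed the filter only through their MP bipolar arrays. For these, passing the filter and the difference are not separate facts. The 2 without a call did not follow. Irx6 read 90.2 and 117 on the MP amacrine arrays, against 58.5 and 55.9 on the MP bipolar arrays (0.70, no call), and Irx5 gave -0.01. The 9 OFF bipolar markers summed to 754 to 794 on the MP amacrine arrays, against 13367 to 13651 on the MP bipolar arrays. The 5 tested markers of bipolar cells in general had a median difference of -3.10. Of 5 tested ON bipolar markers 2 fell and 0 rose, and their median difference was -1.21. Gnb3 read 135 and 76.5 on the MP amacrine arrays, against 607 and 503 on the MP bipolar arrays (-2.27), and Rgs11 read 26.9 and 32.0 on the MP amacrine arrays, against 248 and 252 on the MP bipolar arrays (-2.55). Rgs11 too passed the filter only through its MP bipolar arrays. Nyx, Prkca and Pcp2 gave 0.18, 0.25 and -1.21 with no call, and 3 others, Trpm1 among them, were too dim to be tested. The 8 ON bipolar markers on the array summed to 842 to 1077 on the MP amacrine arrays, against 1627 to 1741 on the MP bipolar arrays. The part of cell type makeup in the Lhx3 result was not tested. By Euclidean distance over the 4 arrays, after subtracting each gene's mean log2 value, the tested genes nearest to Lhx3 were Prrt1 (distance 0.0696), Lrrn3 (0.132) and Camk1d (0.201), as a description with no test.

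Lmo2 was the LIM-only gene that fell in MP amacrine cells. It is best known from blood and endothelial cells, where it joins Ldb1 and the bHLH factor Tal1 in one complex. Its probe set 1454086_a_at read 60.2 and 102 on the MP amacrine arrays, against 220 and 244 on the MP bipolar arrays. All 4 values lay above the array median and the groups did not overlap. The log2 difference was -1.39 (SE 0.26, adjusted p = 0.0102, limma), or 2.62-fold lower with a 95% interval of 1.72 to 3.98-fold. The call was lost with no filter on dim probe sets (adjusted p = 0.0794) and when MP bipolar replicate 2 was left out (adjusted p = 0.0660), in a range of 0.000360 to 0.0794 over 16 alternatives. When every probe set was tested singly it was lost without either MP bipolar replicate (adjusted p = 0.104 without replicate 1 and 0.150 without replicate 2) and with no filter (adjusted p = 0.124).

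Endothelial and microglial markers were read beside Lmo2. Of 4 tested endothelial markers 1 was called, the adhesion gene Esam, which was lower in MP amacrine cells (29.5 and 14.0 on the MP amacrine arrays, against 574 and 605 on the MP bipolar arrays). Esam passed the filter only through its MP bipolar arrays, so its passing and its difference are not separate facts. The other 3 tested, Cdh5, Egfl7 and Tek, gave differences of 0.31, 0.30 and -0.19 with no call. Cdh5 read 50.2 and 54.9 on the MP amacrine arrays, against 38.4 and 40.1 on the MP bipolar arrays. The other 4 were too dim to be tested, Pecam1 and Tie1 among them at 1 to 3.21 on all 4 arrays. The 8 endothelial markers summed to 261 to 288 on the MP amacrine arrays, against 820 to 826 on the MP bipolar arrays. Without Esam the sums were 232 and 274 on the MP amacrine arrays, against 252 and 215 on the MP bipolar arrays, and the groups overlapped. Of 5 tested microglial markers 1 rose in MP amacrine cells (Csf1r) and 0 fell. The 9 microglial markers summed to 1289 to 4136 on the MP amacrine arrays, against 485 to 1688 on the MP bipolar arrays, so the groups overlapped. Ctss, which was not called, carried much of these sums, at 567 and 2665 on the MP amacrine arrays, against 1003 and 2.27 on the MP bipolar arrays. Tal1 was too dim to be tested, with 26.1 to 28.7 on the MP amacrine arrays, against 30.2 to 32.0 on the MP bipolar arrays. The part of these cells in the Lmo2 result was not tested.

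The other LIM-only genes gave no call. Lmo4, known from GABAergic amacrine cells in mice, read 72.6 and 66.7 on the MP amacrine arrays, against 40.7 and 53.5 on the MP bipolar arrays. The groups did not overlap, but the log2 difference of 0.45 did not pass the test (95% interval -0.04 to 0.94, adjusted p = 0.247, limma). Lmo1, a LIM-only gene of the nervous system, read 180 and 92.8 on the MP amacrine arrays, against 126 and 108 on the MP bipolar arrays. The MP bipolar values lay between the MP amacrine values, and the difference was 0.14 (95% interval -0.56 to 0.83, adjusted p = 0.847). Without MP amacrine replicate 1 it was -0.29, so its sign rests on 1 array. Lmo3, whose probe set read 9.57 and 21.8 on the MP amacrine arrays, against 19.3 and 9.24 on the MP bipolar arrays, was below the median on all arrays and was not tested.

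Isl1, a LIM homeodomain factor, lay far above the array median in both groups with probe set 1450723_at. It read 1055 and 925 on the MP amacrine arrays, against 574.5 and 684 on the MP bipolar arrays. The MP amacrine values were the higher ones and the groups did not overlap. The log2 difference of 0.64 (SE 0.20, 95% interval 0.17 to 1.11) did not pass over all tested genes (adjusted p = 0.0835, limma). It passed after quantile scaling (0.73, adjusted p = 0.0431) and after cyclic loess scaling (0.72, adjusted p = 0.0459), in a range of 0.0431 to 0.384 over 16 alternatives.

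The other Isl1 probe set had the same sign and more spread. Probe set 1422720_at read 67.0 and 144 on the MP amacrine arrays, against 64.2 and 35.3 on the MP bipolar arrays. The lower MP amacrine value and the higher MP bipolar value nearly met. The difference was 0.85 (SE 0.37, adjusted p = 0.244 over all tested probe sets, limma), and it was 1.32 (adjusted p = 0.0405) without MP amacrine replicate 1 and 0.37 (adjusted p = 0.613) without MP amacrine replicate 2. Both Isl1 probe sets are annotated to the same source sequence, so they are not independent measurements.

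Markers of cell types that use Isl1 were read beside it. Those of ON bipolar cells are given beside Lhx3 above, with 2 of 5 tested called lower in MP amacrine cells and 0 higher. Of 5 tested starburst amacrine markers 3 fell in MP amacrine cells and 0 rose, and the 3 were Megf10 (-2.99), Rnd3 (-3.08) and Slit2 (-1.92). The 7 starburst markers on the array summed to 2166 to 2664 on the MP amacrine arrays, against 9793 to 10095 on the MP bipolar arrays. Slit2 carried much of these sums. Without it they were 634 and 915 on the MP amacrine arrays, against 3638 and 3783 on the MP bipolar arrays. Slc18a3 and Slc5a7 were too dim to be tested. Slc18a3 read 27.7 and 28.2 on the MP amacrine arrays, against 17.6 and 11.6 on the MP bipolar arrays, and the Slc5a7 groups overlapped. Chat, the acetylcholine-synthesising enzyme of starburst cells, read 66.3 and 86.8 on the MP amacrine arrays, against 61.8 and 62.3 on the MP bipolar arrays, and was not called. Sox2 was not called either (2.16, adjusted p = 0.0529, limma). Of 6 tested ganglion cell markers 1 was called lower (Thy1) and 0 higher, and their median difference was 0.69. Pou4f1 read 157 and 88.8 on the MP amacrine arrays, against 60.3 and 36.8 on the MP bipolar arrays. It was not called (1.08, adjusted p = 0.0528, limma). Nefm, Nefl, Slc17a6 and Nefh gave 3.13, 2.23, 0.30 and -0.49 with no call. The 9 ganglion cell markers on the array summed to 1913 to 3906 on the MP amacrine arrays, against 2830 to 3710 on the MP bipolar arrays. Without Thy1 the sums were 3100 and 458 on the MP amacrine arrays, against 368 and 295 on the MP bipolar arrays. The neurofilament gene Nefm was high on MP amacrine replicate 1 alone, at 1631, against 136 on MP amacrine replicate 2 and 47.7 and 35.0 on the MP bipolar arrays. The part of these cells in the Isl1 values was not tested.

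Lhx2, a factor of retinal progenitors and Müller glia, was too dim to be tested. Its probe set read 5.96 and 28.6 on the MP amacrine arrays, against 28.9 and 9.65 on the MP bipolar arrays, with 1 low array in each group. Of 7 tested Müller glia markers 3 rose in MP amacrine cells and 0 fell, and of 2 tested progenitor markers 1 rose. Slc1a3, among the 3 glial markers that rose, passed the filter only through its MP amacrine arrays. Lhx6, a factor of cortical interneurons, was below the median on every array with both probe sets. Probe set 1425094_a_at read 15.8 and 12.2 on the MP amacrine arrays, against 30.7 and 21.5 on the MP bipolar arrays, and its groups did not overlap. Probe set 1422262_a_at read 17.7 and 17.6 on the MP amacrine arrays, against 20.3 and 17.5 on the MP bipolar arrays, and its groups overlapped. Neither was tested.

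**Figure D2:**
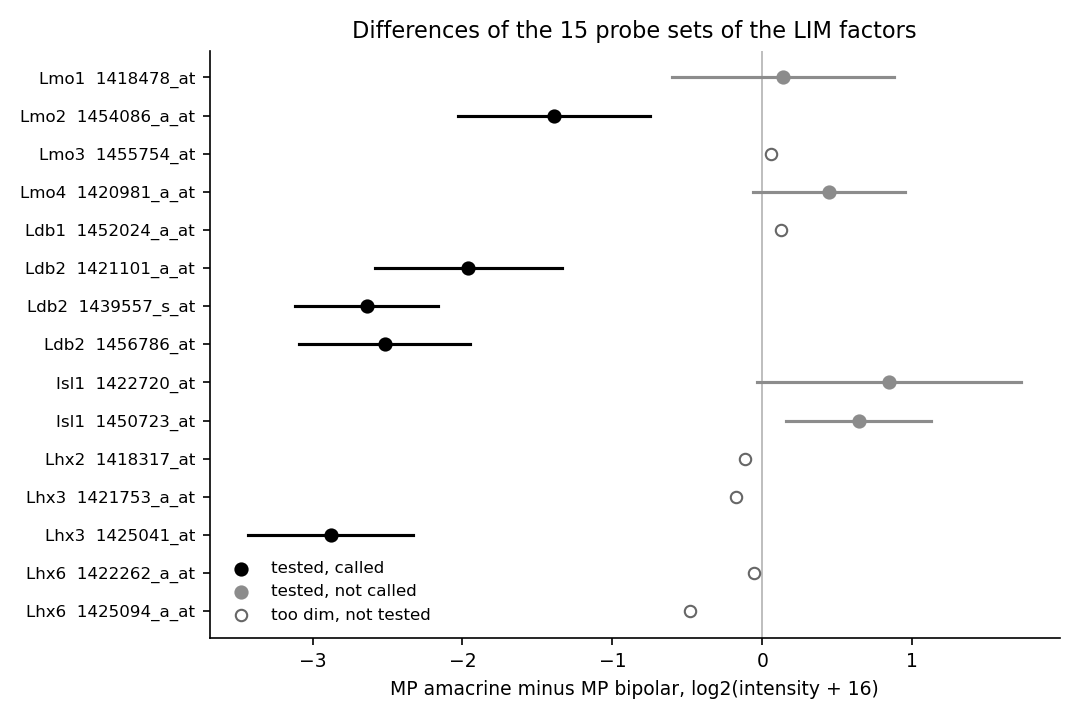
Difference of each of the 15 probe sets, MP amacrine minus MP bipolar, on the log2(intensity + 16) scale. Bars are 95% intervals from the limma fit of all probe sets, black marks called and grey uncalled probe sets, and open points were too dim to be tested and have no interval. The 5 called probe sets, 3 of them of Ldb2, lie between -2.88 and -1.39.

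By single probe sets, 9 of the 15 were tested and 5 were called, all 5 lower in MP amacrine cells. Probe sets 1425041_at of Lhx3 and 1456786_at of Ldb2 passed the filter only through their MP bipolar arrays. For these 2, passing the filter and the difference are not separate facts. Of all tested probe sets 10.2% were called and 5.19% were called lower. For 8 of the 9 the groups did not overlap, as was the case for 51.8% of all tested probe sets. The 5 called probe sets belong to 3 genes, and probe sets of 1 gene share its transcripts. Without MP bipolar replicate 2 the number called was 3 (1 of Lhx3 and 2 of Ldb2).

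Other LIM homeodomain genes were mostly dim. Of 8 on the array 4 were tested, and 1, Lhx4, was called. Of all tested genes 13.5% were called. Lhx4, the closest relative of Lhx3 and a factor of cone bipolar cells, read 85.0 and 33.1 on the MP amacrine arrays, against 403 and 303 on the MP bipolar arrays with probe set 1439905_at (-2.38, SE 0.35, adjusted p = 0.00296, limma). Its other probe set was too dim to be tested, at 10.3 and 6.44 on the MP amacrine arrays, against 20.0 and 18.2 on the MP bipolar arrays. With no filter on dim probe sets the Lhx4 call was lost (adjusted p = 0.0555, in a range of 2.38e-07 to 0.0555 over 16 alternatives). Isl2, Lmx1a and Lmx1b gave differences of -0.05, 0.07 and 0.26 with no call, and Lhx1, Lhx5, Lhx8 and Lhx9 were too dim. The median difference of the 4 tested genes was 0.01.

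Partners of Ldb and Lmo proteins gave 1 call. Of 13 on the array 8 were tested, 1 was called higher in MP amacrine cells and none lower, and their median difference was -0.21. Of all tested genes 13.5% were called, and the list lay near that share. The call was Tcf4, a broadly expressed bHLH protein that pairs with tissue-specific ones, at 5746 and 5726 on the MP amacrine arrays, against 4611 and 4605 on the MP bipolar arrays (0.31, SE 0.08, adjusted p = 0.0362, limma). It was lost under 6 of 16 alternatives, among them without MP bipolar replicate 1 (0.32) or 2 (0.31). A threshold of at least 2-fold, which is not among these 16, dropped it too. When every probe set was tested singly, this one, 1434148_at, was not called (adjusted p = 0.0501, limma). The 5 other Tcf4 probe sets had the same sign, with differences of 0.38 to 1.20. In that fit 1416723_at, 1416725_at, 1424089_a_at and 1434149_at were called (adjusted p = 0.0116 to 0.0411, limma). Probe set 1416724_x_at was not called (adjusted p = 0.0515). Ssbp2, Ssbp3 and Ssbp4, which bind and stabilise Ldb proteins, gave -0.36, -0.11 and 0.36, and Rlim, a ubiquitin ligase for Ldb, gave -0.25. None of these 4 was called. Deaf1, a partner of Lmo4, gave -0.89 (adjusted p = 0.0712).

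LIM-domain proteins of the cytoplasm and of cell adhesions were the widest set. Of 36 on the array 18 were tested, and 1 was called in each direction, with a median difference of 0.08. This too lay near the 13.5% called over all tested genes. Prickle2, a planar polarity protein, read 178 and 103 on the MP amacrine arrays, against 1796 and 2032 on the MP bipolar arrays (-3.67, SE 0.28, adjusted p = 0.000112, limma). Tes, an adhesion and actin-linked protein, read 237 and 298 on the MP amacrine arrays, against 91.2 and 60.8 on the MP bipolar arrays (1.64, SE 0.25, adjusted p = 0.00373). Both were called under all 16 alternatives run. The other Tes probe set gave 2.45.

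**Figure D3:**
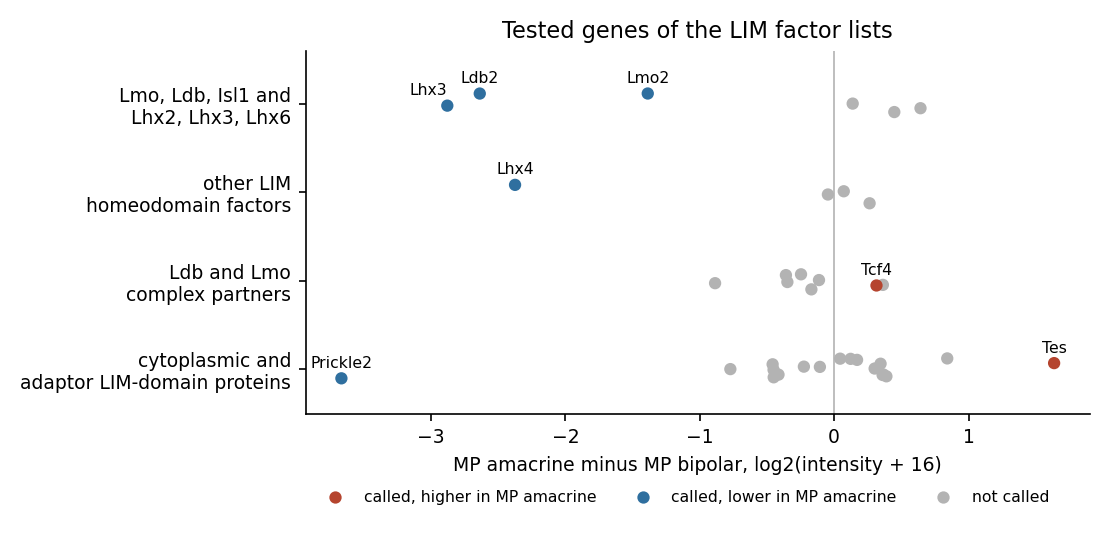
Difference of each tested gene, MP amacrine minus MP bipolar, on the log2(intensity + 16) scale, for the 6 tested LIM factors and for the 3 lists of related genes (4, 8 and 18 tested genes). Red points were called higher and blue points called lower in MP amacrine cells, grey points were not called, and the called genes are named. Lhx3, Ldb2, Lmo2, Lhx4 and Prickle2 were called on the lower side, and Tcf4 and Tes on the higher side. Most partners and cytoplasmic LIM proteins were not called.

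**Figure D4:**
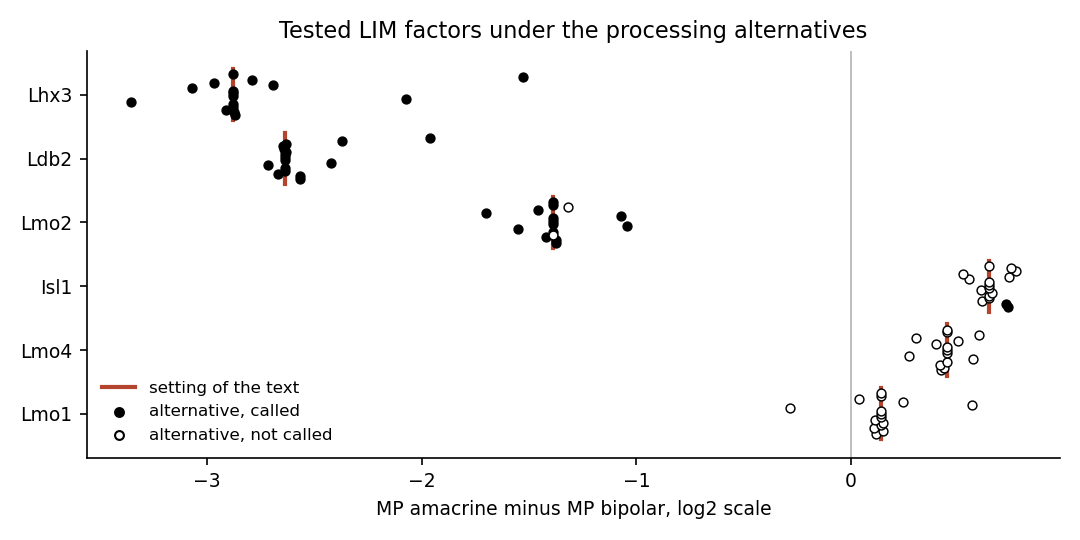
Difference of the 6 tested LIM factors, MP amacrine minus MP bipolar, on the log2 scale, as reported (red line) and under each alternative (filled where called, open where not). Ldb2 and Lhx3 are filled throughout, Lmo2 has 2 open points, Isl1 has 2 filled points, and Lmo1 crosses 0 at -0.29 without MP amacrine replicate 1.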

How the data were processed

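The deposited table gives 1 intensity per probe set and array for 45101 probe sets, on a linear scale. The software of the authors' summarisation, background correction and scaling was not given in the sources used here, and the table has no detection calls. Per the labels' protocols, RNA was amplified in 2 rounds before hybridisation. Samples were grouped by their titles. The platform annotation gave 1 gene for 34945 probe sets, 34741 with a gene ID found in the RefSeq table, which changed 0 symbols. The 64 control probe sets were left out.

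Log2(intensity + 16) values of MP amacrine and MP bipolar arrays were compared with limma 3.58.1 in R 4.3.3 (lmFit, eBayes with trend, two-sided, 2 residual degrees of freedom) across 11583 genes, and across 19168 probe sets taken singly, with Benjamini-Hochberg adjustment over each. The fit was tested on simulated data. The number of arrays, 2 per group, limits precision.

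The members, lists and tests were chosen with earlier results of these data known. The text names every member, the called genes of each related list (up to 4, or else the brightest), and the 3 tested genes nearest to the called member with the largest difference in each direction. Other genes were named after their values were seen, as list members or markers. List genes that no single-gene probe set covers were not analysed here. Alternatives covered scaling, filter, offset, variance model, probe set choice, threshold, replicate block and each replicate left out. Those for Lhx4, Tcf4, Prickle2 and Tes were added after seeing the data.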

Additional observations from a re-analysis of the deposited data

How the results depend on the processing

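With no filter on dim probe sets 785 genes and 694 probe sets were called, against 1559 and 1961 as reported, and 3 member probe sets in place of 5. With each replicate left out in turn, 917 to 1939 genes, 2 to 3 member genes, 819 to 2769 probe sets and 3 to 6 member probe sets were called, the lowest of each without MP bipolar replicate 2. The cause was not tested. These settings also differ in the number of arrays or of tested features. With replicates left out Lmo1 ranged from -0.29 (without MP amacrine replicate 1) to 0.56. Ldb2 and Lhx3 kept their call under all 16 alternatives, Lmo2 under 14, and Isl1 gained one under 2. The titles number replicates 1 and 2 in both groups without saying that a number marks a shared litter, and the deviations of same-numbered arrays did not go together (r = -0.08 over 23648 probe sets). With the replicate block 1932 genes and 3 member genes were called. The filter on dim probe sets kept 4 of the 10 genes out of the test. With no filter none of these 4 was called (adjusted p of 0.244 for Lhx6 to 0.943 for Lmo3), and an uncalled difference does not show equal levels.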
